A study of Mus musculus with 2 samples.

Results

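Caveolins, cavins and the proteins of the caveolar neck were examined in muscle wall (tunica muscularis) taken from the jejunum, the middle stretch of small intestine, in *Dnmt1*-WT and in *Dnmt1*-KO mice. The group comprised 8 genes named by symbol, *Cav1*, *Cav2*, *Cav3*, *Ptrf*, *Sdpr*, *Prkcdbp*, *Ehd2* and *Pacsin2*, and all 8 were found among the 18159 genes listed. The cavin genes appear under their older symbols, *Ptrf* for cavin-1, *Sdpr* for cavin-2 and *Prkcdbp* for cavin-3. Both groups of mice were on a C57BL/6 background, were 15 days old and carried the *smMHC* Cre-eGFP transgene, in which the promoter of the smooth muscle myosin gene *Myh11* drives Cre recombinase and eGFP. *Dnmt1*-KO mice additionally carried floxed *Dnmt1* alleles deleted by that Cre, so the deletion is restricted to smooth muscle cells (SMCs) and other cells of the wall keep the gene. The strain label of both samples names the floxed allele, and a free-text description on both names the knockout, whereas title and genotype label give *Dnmt1*-WT for 1 of them. Each genotype was represented by 1 mRNA library, made from muscle peeled off the mucosa, and the methods state that several mice of both sexes stood behind each genotype without saying how their RNA was combined. There was therefore no replicate, and no difference given here could be set against the spread between animals.

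Caveolae are small flask-shaped pits of the plasma membrane and are especially dense in smooth muscle, endothelium and adipocytes. Caveolins are membrane-inserted hairpin proteins that build the bulb together with a peripheral coat of cavins, and EHD2 and PACSIN2 bind the narrow neck. In smooth muscle, caveolae hold ion channels, calcium pumps and receptors close to the sarcoplasmic reticulum.

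Expression was given in FPKM, fragments per length of transcript relative to all mapped fragments, so that levels of different genes can be compared. The sum over all genes was 429698 FPKM for *Dnmt1*-WT and 460845 FPKM for *Dnmt1*-KO. The deposited values hold no read counts, so no counting interval is given. Neither counting error nor the spread between animals was measured for the 8 members. *Dnmt1* itself was at 11.58 FPKM in *Dnmt1*-WT against 7.58 FPKM in *Dnmt1*-KO, a ratio of 0.655. That value covers the whole gene, and the deleted exons alone were not analysed here. Ratios are *Dnmt1*-KO over *Dnmt1*-WT, unscaled, and the median log2 ratio of the 12758 genes that reached 1 FPKM in both libraries was -0.03.

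Caveola genes were abundant in this tissue, and 7 of the 8 were lower in the *Dnmt1*-KO library, or 6 when ratios were centred on genes of like GC content, which turned *Cav2*. In RNA of a whole tissue, fewer cells of a type and less RNA per cell cannot be told apart. In *Dnmt1*-WT, 7 of the 8 were within the top 10% of listed genes by FPKM, from *Ptrf* at rank 200 and *Cav1* at rank 215 to *Cav3* at rank 1607. The exception was *Cav2*, at rank 4463. Only *Prkcdbp* was higher in *Dnmt1*-KO. A change of 1.5-fold or more was seen for 3 genes, *Prkcdbp* upward and *Cav3* and *Sdpr* downward. Of all genes at 1 FPKM or more in both libraries, 12.4% were higher and 10.5% lower by that much, and among genes at 10 FPKM or more in both, a range that includes all 8, the shares were 7.96% and 7.74%. At 2-fold, *Cav3* alone remained, lower, against a background of 2.82% lower and 5.53% higher. Being lower in itself was common, since 6727 of the 12758 genes had a ratio below 1. The median log2 ratio of the 8 genes was -0.32, beside -0.03 for all genes.

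**Figure D1:**
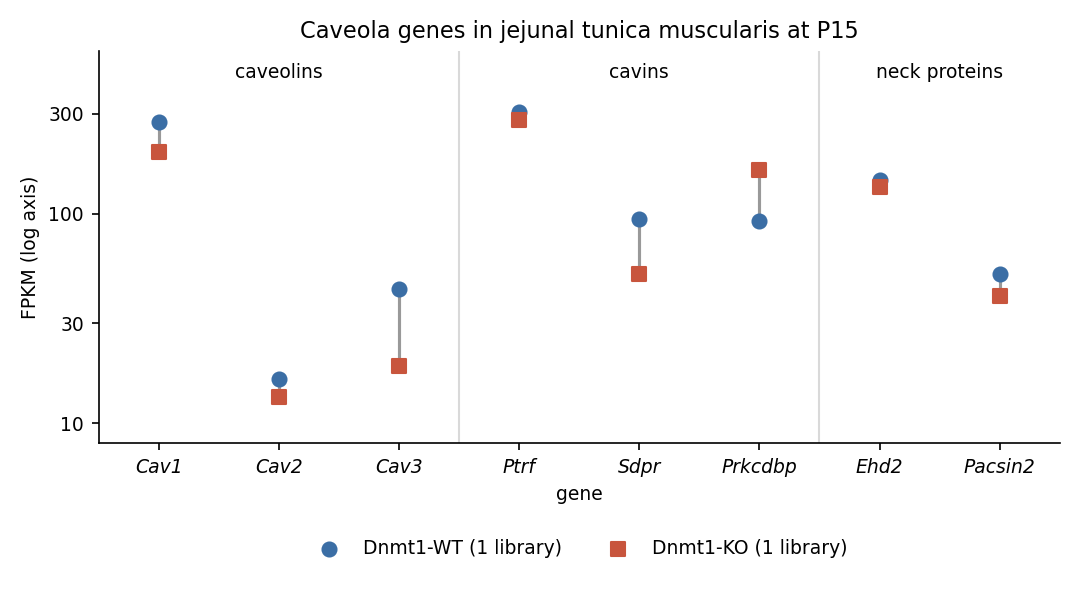
FPKM of the 8 caveola genes on a log axis, with a circle for the *Dnmt1*-WT library and a square for the *Dnmt1*-KO library, 1 library each. The largest gaps are those of *Cav3*, from 43.89 to 18.69, *Sdpr*, from 93.88 to 51.57, and *Prkcdbp*, from 92.54 to 161.12, while the symbols of *Ptrf* and *Ehd2* overlap.

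Promoter sequence was set beside these values because DNMT1 copies methylation at CpG dinucleotides. RefSeq windows on GRCm38.p6, from 250 bases before to 50 bases after each annotated start, were matched for 7 of the 8 genes, 11 windows in all, and *Prkcdbp* was not matched. The windows of the members that were lowest relative to *Dnmt1*-WT (*Cav3* and *Sdpr*) and of the most abundant caveolin and cavin (*Cav1* and *Ptrf*) are shown 5′ to 3′, with CpG dinucleotides in capitals. *Cav3* lies on the plus strand at chr6:112459255-112459554, *Sdpr* on the plus strand at chr1:51288876-51289175, *Cav1* on the plus strand at chr6:17306085-17306384 and *Ptrf* on the minus strand at chr11:100970568-100970867.
Cav3: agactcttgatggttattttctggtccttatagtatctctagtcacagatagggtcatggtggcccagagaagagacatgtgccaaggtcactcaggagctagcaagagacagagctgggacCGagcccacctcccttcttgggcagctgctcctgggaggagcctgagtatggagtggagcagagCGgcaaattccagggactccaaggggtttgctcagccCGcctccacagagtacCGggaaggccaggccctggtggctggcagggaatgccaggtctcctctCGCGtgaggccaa
Sdpr: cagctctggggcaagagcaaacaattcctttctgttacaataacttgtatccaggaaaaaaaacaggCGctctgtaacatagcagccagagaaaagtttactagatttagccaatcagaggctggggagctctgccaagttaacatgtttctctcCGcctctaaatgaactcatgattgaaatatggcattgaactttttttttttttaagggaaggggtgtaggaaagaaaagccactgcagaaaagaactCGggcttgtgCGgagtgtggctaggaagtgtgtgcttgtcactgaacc
Cav1: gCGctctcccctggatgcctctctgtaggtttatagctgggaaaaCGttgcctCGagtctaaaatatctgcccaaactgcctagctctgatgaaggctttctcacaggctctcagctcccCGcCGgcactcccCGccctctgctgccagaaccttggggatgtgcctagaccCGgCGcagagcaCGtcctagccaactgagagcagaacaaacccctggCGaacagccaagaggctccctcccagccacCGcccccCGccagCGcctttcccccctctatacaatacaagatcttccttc
Ptrf: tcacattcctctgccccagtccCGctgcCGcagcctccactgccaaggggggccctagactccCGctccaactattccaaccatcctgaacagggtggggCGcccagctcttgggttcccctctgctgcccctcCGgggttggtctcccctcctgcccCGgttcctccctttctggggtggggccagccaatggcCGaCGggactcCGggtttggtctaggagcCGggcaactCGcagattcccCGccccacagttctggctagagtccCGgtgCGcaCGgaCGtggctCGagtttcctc

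*Cav3* has 6 CpG in its window and *Sdpr* 4, below the median of 7 over all 32851 windows. *Cav1* has 13 in the window shown and 16 in that of its other start, *Cav2* has 16, *Ehd2* 18 and *Ptrf* 17 or 18 at starts that lie 2 bases apart. *Pacsin2* has 27 in its outermost window and 3 and 4 in those of its inner starts. Of all windows 43.6% had fewer CpG than that of *Cav3*, which is thus near the middle, and 31.4% had fewer than that of *Sdpr*. Each of the other matched genes had at least 1 window above the median, and this grouping was made after the ratios were seen. Methylation of these windows was not analysed here. The CArG box, the binding motif of serum response factor, was found in none of the 11 windows and in 1.63% of all windows. The motif GGGCGG, searched on both strands, was present in the first windows of *Cav1*, *Cav2*, *Ehd2*, *Pacsin2* and *Ptrf*, in neither *Cav3* nor *Sdpr*, and in 35.7% of all windows. TATAAA, also searched on both strands, occurred in the *Cav1* window shown and in 13.6% of all windows. These matches describe letters in a window of 300 bases only.

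All 3 caveolin transcripts were lower in *Dnmt1*-KO as listed, by different amounts, while centring on GC content took *Cav2* to a ratio of 1.03. *Cav1*, which encodes the caveolin required for caveolae outside striated muscle, was at 275.23 FPKM in *Dnmt1*-WT against 198.19 FPKM in *Dnmt1*-KO, a ratio of 0.720 and the largest loss in FPKM among the 8 genes. This ratio lay at the 15.4th percentile of all genes at 1 FPKM or more in both libraries. *Cav1* extends on chromosome 6 of GRCm38 from 17306335 to 17341452. *Cav2*, which encodes the partner that forms mixed oligomers with caveolin-1, lies on the same strand 17219 bases upstream, from 17281185 to 17289115. Its expression was 16.32 FPKM in *Dnmt1*-WT against 13.40 FPKM in *Dnmt1*-KO, a ratio of 0.821 at the 27.5th percentile. The *Cav1* level was 16.9 times that of *Cav2* in *Dnmt1*-WT against 14.8 times in *Dnmt1*-KO, so these neighbours kept a similar proportion. An antisense gene, *Gm15581*, spans both, and reads of the opposite strand could not be told apart if the counting ignored strand, which the sources used here do not state.

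*Cav3*, the caveolin known from skeletal and cardiac muscle, differed most. It was at 43.89 FPKM in *Dnmt1*-WT against 18.69 FPKM in *Dnmt1*-KO, a ratio of 0.426 and a 2.35-fold difference, at the 1.37th percentile of all genes. In *Dnmt1*-WT its level was 2.69 times that of *Cav2*, and in *Dnmt1*-KO 1.39 times, a pair set side by side after the values were seen. The gene lies on chromosome 6 from 112459505 to 112472872, with no other annotated gene overlapping it, and its number of transcript variants was 2 in each library. Beside it, the list of skeletal muscle markers summed to 104.37 FPKM in *Dnmt1*-WT against 62.57 FPKM in *Dnmt1*-KO over 6 of 8 listed genes. Most of this came from *Ckm*, the muscle creatine kinase gene, at 96.73 and 41.41 FPKM, a ratio of 0.428. The defining genes *Myod1*, at 0 in both libraries, and *Myh1*, at 0.06 and 0.05 FPKM, were absent or near the lower end of the scale. *Acta1*, skeletal actin, was at 5.17 and 12.22 FPKM, and *Tnnt3*, fast skeletal troponin T, at 2.35 and 8.57 FPKM, both higher in *Dnmt1*-KO. Of the cardiac markers, *Tnnt2*, cardiac troponin T, was the most abundant at 239.20 and 328.53 FPKM, whereas *Myh6* was at 0.26 and 0.68 FPKM, *Tnni3* was listed at 0 in *Dnmt1*-WT against 2.01 FPKM in *Dnmt1*-KO, and *Myl7*, the atrial myosin light chain gene, was at 0.36 and 2.91 FPKM. The fifth of them, *Nppa*, the atrial natriuretic peptide gene, was lower, at 1.01 and 0.57 FPKM, a ratio of 0.564.

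**Figure D2:**
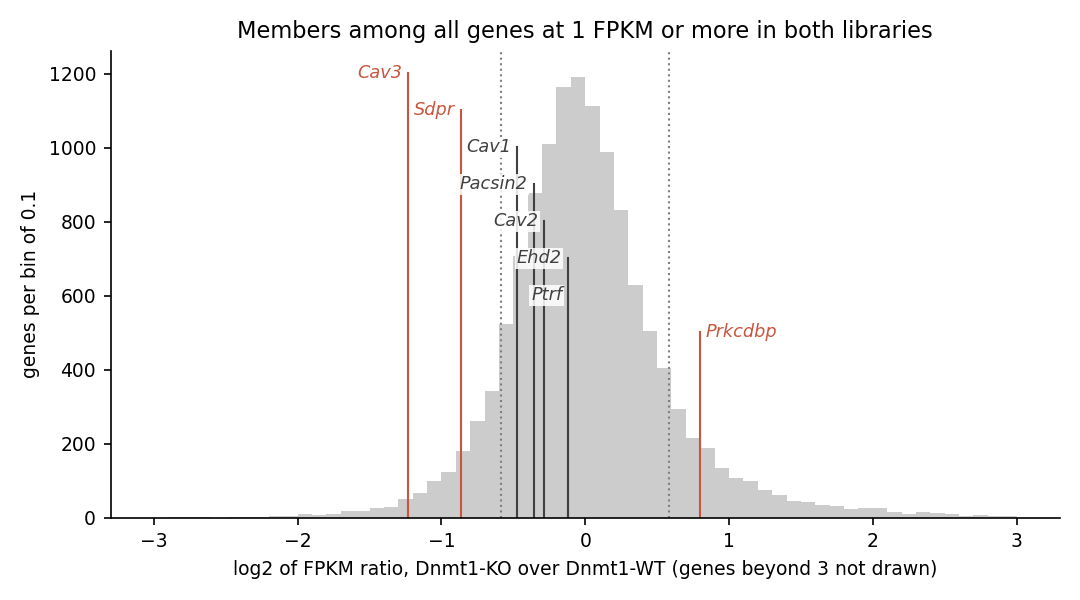
Histogram of the log2 ratio of FPKM, *Dnmt1*-KO over *Dnmt1*-WT, in bins of 0.1 for the genes at 1 FPKM or more in both libraries (41 of the 12758 lie beyond 3 on either side and are not drawn). Vertical lines mark the 8 caveola genes, coloured where past the dotted 1.5-fold lines, and *Cav3* sits at the 1.37th and *Prkcdbp* at the 92.0th percentile.

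The 3 cavins went in different directions while their unscaled sum was almost the same in both libraries. Cavin-1, encoded by *Ptrf* and needed for caveola formation, was the most abundant of the 8 transcripts, at 304.86 FPKM in *Dnmt1*-WT against 280.48 FPKM in *Dnmt1*-KO, a ratio of 0.920 at the 41.6th percentile. *Sdpr*, whose product cavin-2 binds phosphatidylserine and shapes caveolae, was at 93.88 and 51.57 FPKM, a ratio of 0.549 at the 4.20th percentile. *Prkcdbp*, whose product cavin-3 binds protein kinase C delta, was at 92.54 and 161.12 FPKM, a ratio of 1.74 at the 92.0th percentile. *Sdpr* and *Prkcdbp* were thus almost equal in *Dnmt1*-WT, while in *Dnmt1*-KO *Prkcdbp* was 3.12 times as abundant. This pair too was chosen after its values were seen. The summed FPKM of the cavins was 491.28 in *Dnmt1*-WT against 493.17 in *Dnmt1*-KO, and that of the caveolins 335.44 and 230.28, a ratio of 0.687.

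Shares within a library do not depend on the scaling between libraries. *Prkcdbp* made up 18.8% of the cavin FPKM in *Dnmt1*-WT against 32.7% in *Dnmt1*-KO, *Sdpr* 19.1% and 10.5%, and *Ptrf* 62.1% and 56.9%. Among the caveolins the share of *Cav1* was 82.1% and 86.1%, that of *Cav3* 13.1% and 8.12%, and that of *Cav2* 4.87% and 5.82%. *Ptrf* exceeded *Cav1* by 1.11 times in *Dnmt1*-WT and by 1.42 times in *Dnmt1*-KO. This last change, 1.28-fold as listed, was 0.972-fold after each ratio was centred on genes of like GC content, an alternative chosen after seeing the data.

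**Figure D3:**
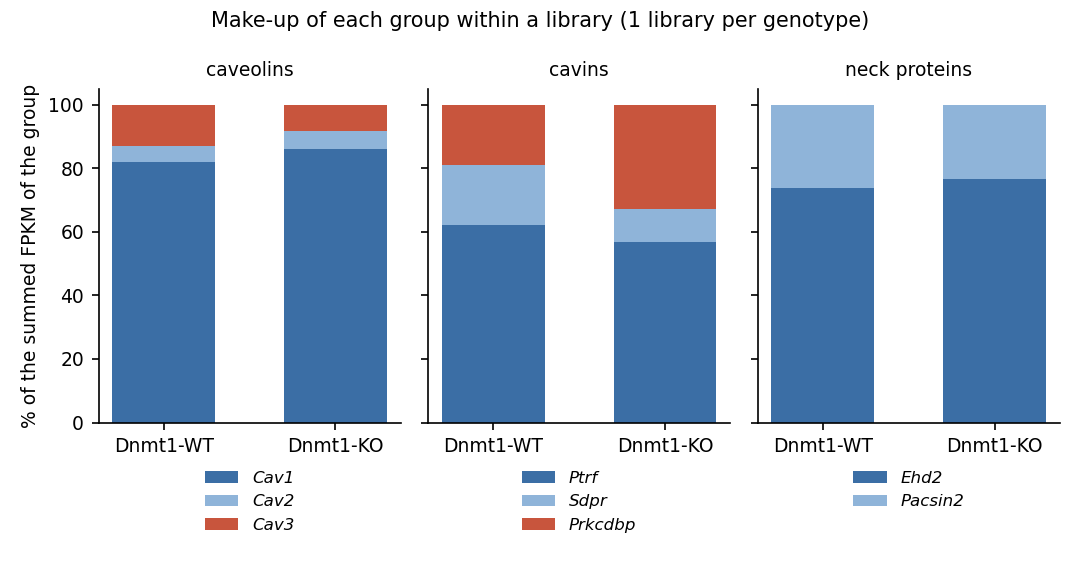
Stacked bars of the percentage that each gene contributes to the summed FPKM of the caveolins, cavins and neck proteins, on an axis that starts at 0, in 1 library per genotype. The share of *Prkcdbp* among cavins is 18.8% in *Dnmt1*-WT against 32.7% in *Dnmt1*-KO, and that of *Sdpr* 19.1% and 10.5%.

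*Sdpr* lies on chromosome 1 from 51289126 to 51302960 on the plus strand, inside an antisense gene, *9330175M20Rik*, that was listed at 0.09 FPKM in *Dnmt1*-WT against 0 in *Dnmt1*-KO. *Prkcdbp* lies on the minus strand of chromosome 7 from 105480083 to 105482300, and its start is overlapped by *Gm45667*, a transcript model of undetermined type on the other strand. *Ptrf*, on the minus strand of chromosome 11 from 100956733 to 100970887, is overlapped by no annotated gene. Each of the 3 cavin genes had 1 transcript variant in each library.

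Both neck protein transcripts were lower by less than 1.5-fold. *Ehd2*, whose product is an ATPase that holds caveolae at the membrane, was at 145.47 FPKM in *Dnmt1*-WT against 133.66 FPKM in *Dnmt1*-KO, a ratio of 0.919 close to that of *Ptrf*. *Pacsin2*, which encodes a membrane-bending F-BAR protein, was at 51.79 and 40.37 FPKM, a ratio of 0.779 at the 22.1st percentile. *Pacsin2* was also the only one of the 8 genes whose number of transcript variants differed, with 2 in *Dnmt1*-WT against 3 in *Dnmt1*-KO. *Ehd2* lies on the minus strand of chromosome 7 from 15946958 to 15967567 and *Pacsin2* on the minus strand of chromosome 15 from 83375607 to 83464606, where a processed pseudogene, *Gm5417*, overlaps it.

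Ratios across genes were related to transcript length and GC content, which bears on how far single members can be read. With the 12693 genes of the background that had a transcript length sorted into 10 bins of equal size, the median log2 ratio went from 0.23 in the bin of the shortest transcripts to -0.25 in that of the longest, and from -0.32 in the bin lowest in GC content to 0.18 in the highest. *Cav3* has the shortest transcript of the 8, 1157 bases, in a bin whose median was 0.23, whereas its own log2 ratio was -1.23. *Prkcdbp*, with 1662 bases and 56.4% GC, lies in length and GC bins with medians of 0.13 and 0.18 against its own 0.80. *Sdpr* and *Cav1*, at 44.4% and 42.6% GC, lie in GC bins with medians of -0.15 and -0.22. Dividing each ratio by the median ratio of its GC bin left *Cav3* at 0.377, *Sdpr* at 0.610 and *Prkcdbp* at 1.54, all still past 1.5-fold, but moved *Cav1* to 0.838 and *Cav2*, the member lowest in GC at 37.5%, to 1.03, which turns its direction. The same centring by length left those 3 genes past 1.5-fold as well and turned no direction, and it too was chosen after seeing the data.

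**Figure D4:**
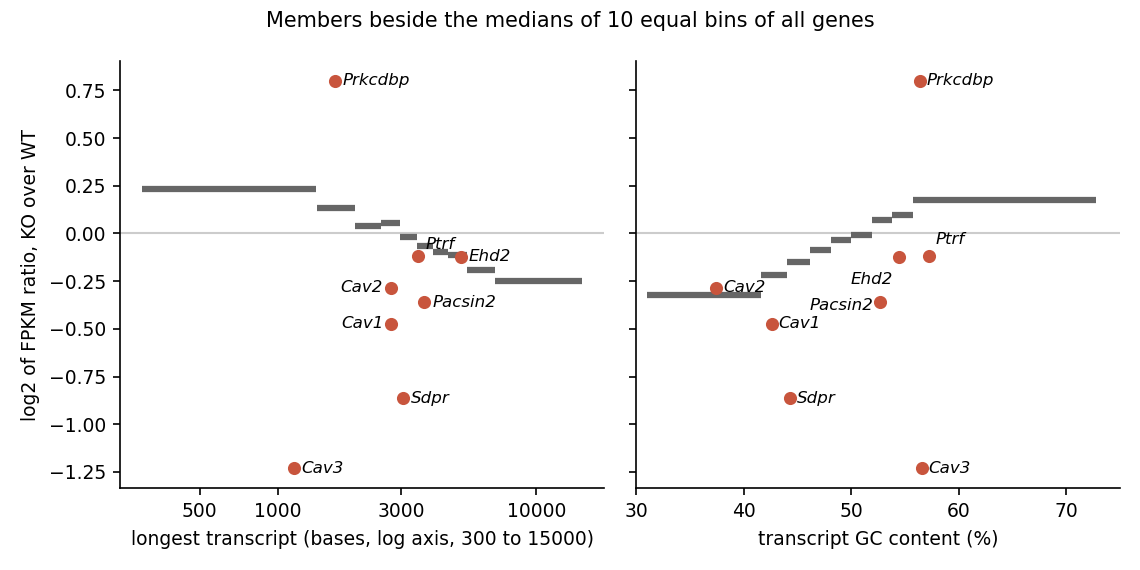
Log2 ratio of FPKM against longest transcript (left, log axis) and transcript GC content (right). Points are the 8 caveola genes and grey bars the medians of 10 equal bins of the 12693 genes with a transcript length, drawn between 300 and 15000 bases on the left. *Cav3*, at -1.23, and *Prkcdbp*, at 0.80, lie far from the bars beneath or above them, while *Cav2* lies on its bar in the GC panel.

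Genes around the members (paralogs, scission, actin link and kinases, flotillins, and channels, pumps and receptors) were counted from a list of 26, of which 25 reached 1 FPKM in at least 1 library. Of these 25, 15 were lower and 10 higher in *Dnmt1*-KO, 7 were lower and 3 higher by 1.5-fold or more, and the median log2 ratio was -0.18. Of all genes, 10.5% were lower and 12.4% higher by that much. Centring on transcript length left 5 of the 25 lower and 4 higher by 1.5-fold or more. The channels, pumps and receptors, a group of 12, held 5 of the 7 lower genes. In that group, *Atp2b4*, a plasma membrane calcium pump, was at 197.55 FPKM in *Dnmt1*-WT against 85.77 FPKM in *Dnmt1*-KO, a ratio of 0.434. *Trpc1*, a cation channel, was at 8.55 and 4.21 FPKM, a ratio of 0.492. *Kcnma1*, the large-conductance potassium channel, and *Cacna1c*, the L-type calcium channel, had ratios of 0.518 and 0.521 and were singled out after their values were seen. The opposite extreme was *Nos3*, endothelial nitric oxide synthase, an enzyme bound by caveolin-1, at 1.24 and 5.25 FPKM, a ratio of 4.23. *Flna*, the actin crosslinker that tethers caveolae, was the most abundant of the scission, actin and kinase group at 1204.72 and 770.40 FPKM, a ratio of 0.639.

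Paralogs of the members had a median log2 ratio of 0.40. *Ehd4*, the most abundant, was at 79.52 FPKM in *Dnmt1*-WT against 67.45 FPKM in *Dnmt1*-KO, and *Ehd1*, singled out after its value was seen, was at 34.19 and 58.69 FPKM, a ratio of 1.72. *Murc*, the striated-muscle cavin-4, was at 0.38 and 0.23 FPKM, under 1 FPKM in both libraries. The flotillins, which form separate membrane domains, had ratios of 1.28 for *Flot1* and 1.01 for *Flot2*. Genes of the clathrin coat, the other main endocytic coat, were mostly higher, 10 of 12, with 3 higher by 1.5-fold or more beside 12.4% of all genes. These 3 were just past the line, and none of the 12 passed it under equal FPKM sums, where 8 were higher, or after centring on GC content. Their median log2 ratio was 0.18 as listed, 0.08 under equal FPKM sums, 0.29 centred on GC content and 0.35 centred on transcript length. After these centrings, 11 of the 12 were higher for GC content and 10 for length. Ratios as listed ranged from 0.829 to 1.55. The most abundant in *Dnmt1*-WT, *Ap2m1*, a subunit of the clathrin adaptor AP2, was level at 134.72 and 134.61 FPKM. The most abundant in *Dnmt1*-KO was *Clta*, a clathrin light chain, at 112.59 and 169.42 FPKM, just past 1.5-fold.

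**Figure D5:**
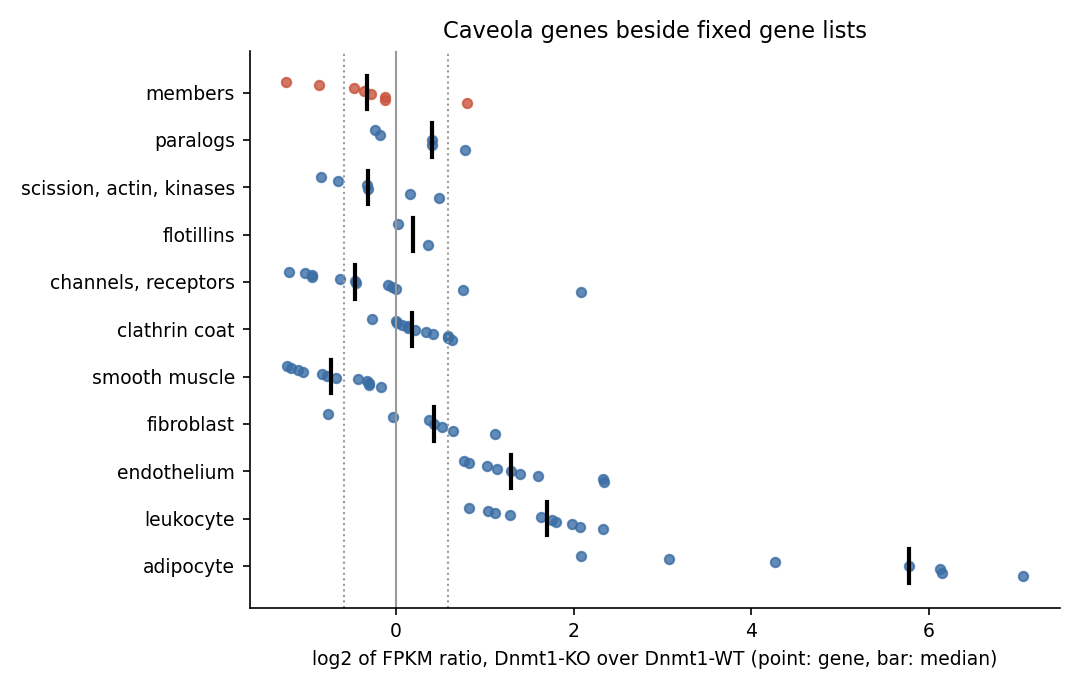
Log2 ratio of FPKM for each gene (points) of the 8 members, the related lists and marker lists of cell types, with black bars at the medians and dotted lines at 1.5-fold. Members have a median of -0.32, between smooth muscle markers at -0.73 and fibroblast markers at 0.44, while endothelial, leukocyte and adipocyte markers lie higher, the endothelial genes at a median log2 ratio of 1.30.

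The tissue label was borne out by its markers, since smooth muscle genes were among the most abundant in both libraries. All 12 smooth muscle genes were lower in *Dnmt1*-KO, with a median ratio of 0.604 and a range from 0.427 to 0.893. By 1.5-fold or more, 7 were lower, beside 10.5% of all genes at 1 FPKM or more in both libraries. Centring on transcript length left all 12 lower but took the median log2 ratio from -0.73 to -0.57, just inside 1.5-fold, and left 5 past it. The most abundant was *Acta2* at 5408.13 and 4016.24 FPKM. Of the 8 caveola genes, 6 had a ratio above the smooth muscle median. As listed, *Ptrf*, *Ehd2* and *Prkcdbp* were above the highest ratio of that list, *Cav3* was just below the lowest, and *Sdpr* was below the median. Centring on GC content took *Ptrf* to 0.815 and *Ehd2* to 0.860, so neither stayed above 0.893, the highest smooth muscle ratio as listed. The smooth muscle gene with that ratio lies in a GC bin with a median log2 ratio of -0.01. Markers of other caveola-rich cells went the other way. All 9 endothelial genes were higher by 1.5-fold or more, beside 12.4% of all genes. They summed to 66.93 FPKM in *Dnmt1*-WT against 169.83 FPKM in *Dnmt1*-KO, and *Pecam1*, the most abundant, was at 15.76 and 38.84 FPKM. Adipocyte genes summed to 110.62 and 1208.12 FPKM, most of it *Fabp4*, and the 7 of 8 above 0 in both libraries were all higher, while *Lep* was listed at 0 in *Dnmt1*-WT against 0.20 FPKM in *Dnmt1*-KO. All 10 macrophage and leukocyte genes were higher, summing to 109.77 and 369.96 FPKM. Fibroblast genes summed to 3317.01 and 5068.46 FPKM, with 5 of 7 higher and *Pdgfra* lower at 68.95 and 40.72 FPKM. These marker lists differed between the same pair of libraries as the caveola genes, smooth muscle lower and the endothelial, adipocyte and leukocyte lists higher, and their part in the values of *Cav1*, *Ptrf*, *Prkcdbp* and the others was not tested.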

How the data were processed

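Muscle wall mRNA of the jejunum was measured in *Dnmt1*-WT and *Dnmt1*-KO, with 1 TruSeq library each. The authors deposited FPKM per gene, rounded to 2 decimals, with a count of variants per gene and library and their own ratio, which was not used. The submitters' processing notes name TopHat 1.4.1, Cufflinks 2.0.2 and mm10. Depth could not be read from the FPKM: the lowest value above 0 was 0.03 in both libraries and in each of 4 classes of transcript length in *Dnmt1*-WT. The study's own sequencing summary lists fewer mapped reads for *Dnmt1*-KO than for *Dnmt1*-WT, and those totals were not used here.

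Members were taken by symbol. Members and gene lists were chosen with earlier results of these data known. The 1.5-fold threshold and the ratios within a library were set when the FPKM of most members had already been seen in the study's supplementary tables, and the ratios *Prkcdbp*/*Sdpr* and *Cav3*/*Cav2* were added after all values were seen. A rule set which genes could be named: all members, and in the lists the most abundant gene and those at 1 FPKM or more in a library with a ratio of at least 2 or at most 0.5. Many genes that met the rule were not described. In the smooth muscle list these were *Smtn*, *Mylk*, *Myh11* and *Lmod1*, with ratios from 0.427 to 0.485. Most endothelial, leukocyte and adipocyte genes higher by 2-fold or more were left out too. *Clta*, *Kcnma1*, *Cacna1c*, *Ehd1*, *Flot1*, *Murc*, *Pdgfra*, *Lep*, *Tnni3*, *Nppa*, *Myh6*, *Myod1*, *Myh1* and the genes that overlap members fall outside the rule. Plain ratios of FPKM were used without scaling or pseudocount, no test was possible, and shares past 1.5-fold and 2-fold were taken over genes at 1 FPKM or more in both libraries. Lists were counted over genes at 1 FPKM or more in at least 1 library. The lists not described further, enteric glia, interstitial cells of Cajal, mesothelium and enterocyte, had median log2 ratios of 0.13, -0.17, 0.21 and 0.70.

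Alternatives were 4 scalings (median, upper quartile, FPKM sum, and a trimmed mean without 30% of ratios and 5% of levels at each end), pseudocounts of 0.1 and 1, 2 other backgrounds, and centring on transcript length and GC content in 10 bins. Lengths came from the longest transcript in GENCODE M21 on GRCm38, the assembly of mm10, and 98.9% of symbols had one. Counting and scaling were tested on simulated data. Python 3.11.15, numpy 2.4.6, pandas 2.3.3 and matplotlib 3.10.9 were used.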

Additional observations from a re-analysis of the deposited data

How the results depend on the processing

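With 1 library per genotype, an alternative was read as a change when it took a ratio across 1.5-fold or moved it by 1.5 times. Under the 4 scalings, the 2 pseudocounts and the 2 centrings, the number of members past 1.5-fold stayed at 1 higher and 2 lower. *Cav3* ranged from 0.363 to 0.439, *Sdpr* from 0.512 to 0.610 and *Prkcdbp* from 1.54 to 1.78. *Cav1* ranged from 0.671 to 0.838 and came closest to the 1.5-fold line under equal FPKM sums. *Cav2* ranged from 0.766 to 1.03, and only centring on GC content turned its direction. Adding 1 FPKM, a constant that weighs most on low values, lowered the median log2 ratio of the adipocyte list to 4.19. Centring on GC content brought the change in the proportion of *Sdpr* to *Ptrf* from 0.597 to 0.748, inside the 1.5-fold line. Which of these 2 values is closer to the true change was not tested. Centring on transcript length took the median log2 ratio of the smooth muscle list from -0.73 to -0.57 and that of the fibroblast list from 0.44 to 0.63, across the 1.5-fold line in opposite ways. The share of all genes past 1.5-fold in either direction was 22.9%, and it was 32.3% over genes above 0 in both libraries and 15.7% at 10 FPKM or more. Equal FPKM sums shifted every log2 ratio by -0.10. No paired analysis was possible because each genotype has 1 library. Small differences such as those of *Ptrf* and *Ehd2* are limited by the lack of replicate libraries, since the spread between animals is unknown.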
